A study of Mus musculus with 1 sample.

Results

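The genes described are 10 genes of adrenal steroid synthesis and of the response to adrenocorticotropic hormone (ACTH): *Star*, *Cyp11a1*, *Hsd3b1*, *Cyp21a1*, *Cyp11b1*, *Cyp11b2*, *Fdx1*, *Mc2r*, *Mrap* and *Akr1c18*. They were chosen by symbol, and all 10 were found among the 32285 genes of the count matrix. Their transcripts were followed across the cell classes of the adrenal and, within the cortical cells, across clusters ordered by markers of the outer and inner cortex.

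Steroid hormones are made from cholesterol in a fixed order of steps. STAR brings cholesterol into the mitochondrion, CYP11A1 cuts its side chain with electrons passed on by ferredoxin (*Fdx1*), and HSD3B1 and CYP21A1 carry the product on towards the precursors of the final hormones. CYP11B1 completes corticosterone, the glucocorticoid of the mouse, in the zona fasciculata, while CYP11B2 completes aldosterone in the outermost zona glomerulosa. ACTH from the pituitary drives glucocorticoid synthesis through its receptor MC2R, which reaches the cell surface with the help of the accessory protein MRAP. AKR1C18 (20-alpha-hydroxysteroid dehydrogenase) inactivates progesterone, and in the mouse adrenal it is a known marker of the X zone, an inner cortical layer next to the medulla that is remodelled with age and sex.

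The sample was a single library from wild-type mice without treatment at postnatal day 15. Most of the cortex had been trimmed off by hand, and tissue of 5 mice, males and females, with 10 glands in all, went into 1 pool, so that no value can be assigned to an animal. Droplet sequencing gave each transcript molecule a unique molecular identifier (UMI) that is counted once at the 3′ end whatever the transcript's length. The matrix held 51421499 UMIs in 11214 barcodes, with a median of 3250 each, and no barcode was listed more than once. Cells with 500 to 5000 genes and at most 20% mitochondrial UMIs were kept, which left 10139 with a median of 3567 UMIs. A level is the UMIs of a gene summed over the cells of a group per 1000000 UMIs of that group (CPM). The interval in parentheses after a level, a ratio or a share is exact and at 95% (Poisson, conditional binomial or Clopper-Pearson), and it covers counting error only. There were no replicates, so no difference was tested between samples.

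Although the sample was labelled as medulla, cortex-like cells formed a large class of 3364 cells, 33.2% of those kept. Chromaffin-like cells, the hormone-secreting cells of the medulla, numbered 2138, and endothelial-like cells 2150. All 8 cortex markers fixed for naming were each found in at least 25% of the cortex-like cells. None of the 7 chromaffin markers reached 25% in any cortical cluster kept. A further 883 cells carried markers of more than 1 class, 48.4% of them were called doublets, and they were left out of the classes. Since trimming set how much cortex remained, the cells describe the cortical tissue left on the medullae and not the proportions of the gland.

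The cortical cells were clustered again with the 10 genes left out of the variable features. Clusters were called outer where *Wnt4*, a signalling gene of the zona glomerulosa, reached at least 100 CPM, inner where *Pik3c2g*, a kinase gene of the X zone, did so, and middle where neither did. These limits were set after the clusters had been seen, and the position of the cells in the tissue was not measured. There were 2 outer clusters, A with 125 cells (*Wnt4* at 1407 CPM) and B with 474 cells (345 CPM), 1 middle cluster of 690 cells, and 3 inner clusters, A with 298 cells (*Pik3c2g* at 1466 CPM), B with 645 (538 CPM) and C with 764 (287 CPM). The remaining 368 cells were led by cell cycle genes such as *Top2a* and are called cycling. The clusters differed in other ways whose part in the results was not tested. Outer B was led by the immediate early genes *Atf3*, *Btg2* and *Fos*, the latter at 1611 CPM against 1111 CPM in outer A and 134 CPM in the middle cluster. The middle cluster had the highest median share of mitochondrial UMIs of these clusters, 11.1%, and inner C the lowest median depth, 3251 UMIs.

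Sequences were at hand for the start regions of some of the genes. Shown here are the 250 bases before the RefSeq start site (assembly GRCm38.p6) of 3 of them with the promoter at the annotated gene start: *Akr1c18*, the most abundant of the 10 genes in inner A, and *Hsd3b1* and *Fdx1*, which were abundant in each cortical cluster. They lie at chr13:4150647-4150896, chr3:98859795-98860044 and chr9:51963603-51963852, all on the minus strand, and are written 5′ to 3′ along that strand. Capitals mark the matches to the 7 motifs searched on both strands, and position -1 is the base before the start.
Akr1c18: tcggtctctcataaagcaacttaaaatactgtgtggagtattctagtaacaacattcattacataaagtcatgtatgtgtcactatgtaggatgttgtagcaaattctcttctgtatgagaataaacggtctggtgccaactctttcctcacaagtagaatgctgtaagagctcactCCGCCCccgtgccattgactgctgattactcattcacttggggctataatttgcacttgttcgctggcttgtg
Hsd3b1: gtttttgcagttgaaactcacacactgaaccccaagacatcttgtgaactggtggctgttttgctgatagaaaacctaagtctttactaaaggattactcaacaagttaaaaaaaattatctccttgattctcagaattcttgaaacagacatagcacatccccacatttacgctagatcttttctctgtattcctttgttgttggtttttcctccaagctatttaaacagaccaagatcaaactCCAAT
Fdx1: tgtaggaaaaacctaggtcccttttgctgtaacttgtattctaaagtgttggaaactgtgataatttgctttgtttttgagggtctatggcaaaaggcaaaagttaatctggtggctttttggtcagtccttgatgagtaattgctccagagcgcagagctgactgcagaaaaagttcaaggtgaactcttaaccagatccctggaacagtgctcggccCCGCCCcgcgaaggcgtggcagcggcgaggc
The *Akr1c18* window held GGGCGG, the GC box, on the reverse strand from position -73, and the *Fdx1* window held it on the reverse strand from -31. The *Hsd3b1* window ended in CCAAT at -5. GGGCGG was found in 32.7% and CCAAT in 33.8% of all 32851 promoter windows of that length, so these matches are common. No window of the 3 held CAAGGTCA, a form of the site bound by the steroidogenic factor SF-1 (found in 1.33% of all windows). None held the similar AAAGGTCA (1.34%) or their shared core AGGTCA (14.02%). The cyclic AMP response element TGACGTCA (1.55%) and TATAAA (12.4%) were missing too. A match or its lack describes these letters in this window and nothing more.

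In GRCm38 coordinates of the GENCODE vM21 annotation, whose identifiers match those of the matrix, *Star* spans chr8:25806555-25815982 and *Cyp11a1* chr9:58006411-58027023, both on the plus strand. *Hsd3b1* spans chr3:98852194-98859794, *Cyp21a1* chr17:34801348-34804561, *Fdx1* chr9:51943306-51963556 and *Akr1c18* chr13:4132615-4150654, all on the minus strand. *Mrap* spans chr16:90738207-90749785 on the plus strand. *Cyp11b1* (chr15:74834125-74841643) and *Cyp11b2* (chr15:74851010-74856318) are neighbours on the minus strand and closely related, which matters for counting at 3′ ends. Of the 451 stretches of 50 bases in the last 500 bases of the *Cyp11b2* transcript, 86 (19.1%) also occur in *Cyp11b1*, whereas none of those of *Cyp11b1* occurs in *Cyp11b2*, so a read that lay in such a stretch could not be assigned to 1 of the 2 genes.

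All 9 of the genes with enough UMIs for the comparison were at least 4 times higher in cortex-like than in chromaffin-like cells, a difference that 3.26% of the 11092 genes tested showed in that direction. The same 9 were at least 4 times higher than in endothelial-like cells, as were 3.34% of 10501 genes. The exception in number of UMIs was *Cyp11b2*, with 55 in the cortex-like cells and 1 in the chromaffin-like cells. With a pseudocount of 10 CPM, the median log2 ratio of the 9 genes was 6.39, against 0.00 over all genes tested. *Star* stood at 6570 CPM (6536 to 6604) in cortex-like and 41.9 CPM (37.8 to 46.3) in chromaffin-like cells, 157 times higher (142 to 174). *Mrap* had the largest ratio of the 9, 183 (143 to 237), and *Fdx1* the smallest, 44.5 (41.3 to 48.0). Together the 10 genes supplied 3.21% of all UMIs of the cortex-like cells. By summed UMIs *Star* ranked 7 among all genes there, *Hsd3b1* 10, *Akr1c18* 15, *Cyp21a1* 17, *Cyp11a1* 20 and *Fdx1* 27, whereas the receptor gene *Mc2r* ranked 662 and *Cyp11b2* 10480.

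**Figure D1:**
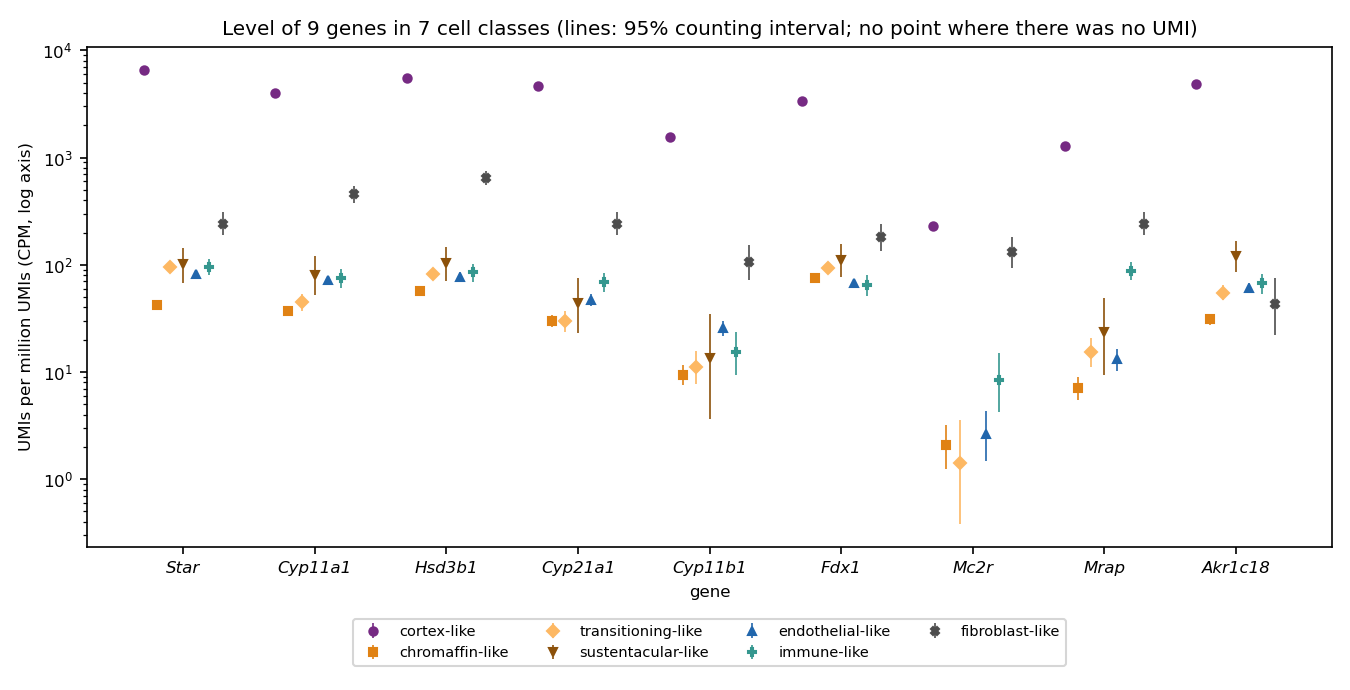
Level of 9 of the genes (CPM, log axis) in 7 cell classes, each point with its exact 95% Poisson interval, which covers counting error only; no point is drawn where there was no UMI. In cortex-like cells the 9 genes lie between 230 and 6570 CPM, above their levels in each of the other classes.

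UMIs of the most abundant of these genes were also found at a low rate in cells that do not make steroids, where free RNA in the suspension can supply them. *Star* had at least 1 UMI in 99.6% of cortex-like cells (99.3 to 99.8), but also in 15.4% of endothelial-like cells (13.9 to 17.0) and 11.4% of chromaffin-like cells (10.1 to 12.8). Median depth was 5188 UMIs in cortex-like and 2010 in endothelial-like cells. With each cell thinned to 1000 UMIs, the shares with *Star* were 97.0% and 7.07%. The endothelial-like share or level is the background used below for the other genes, over all cells of the class unless stated. Of the UMIs of the 10 genes in that class, 22.1% lay in 12 cells with 20 or more. Levels also differed between the classes that do not make steroids, so nearness to the background depends on the class taken.

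**Figure D2:**
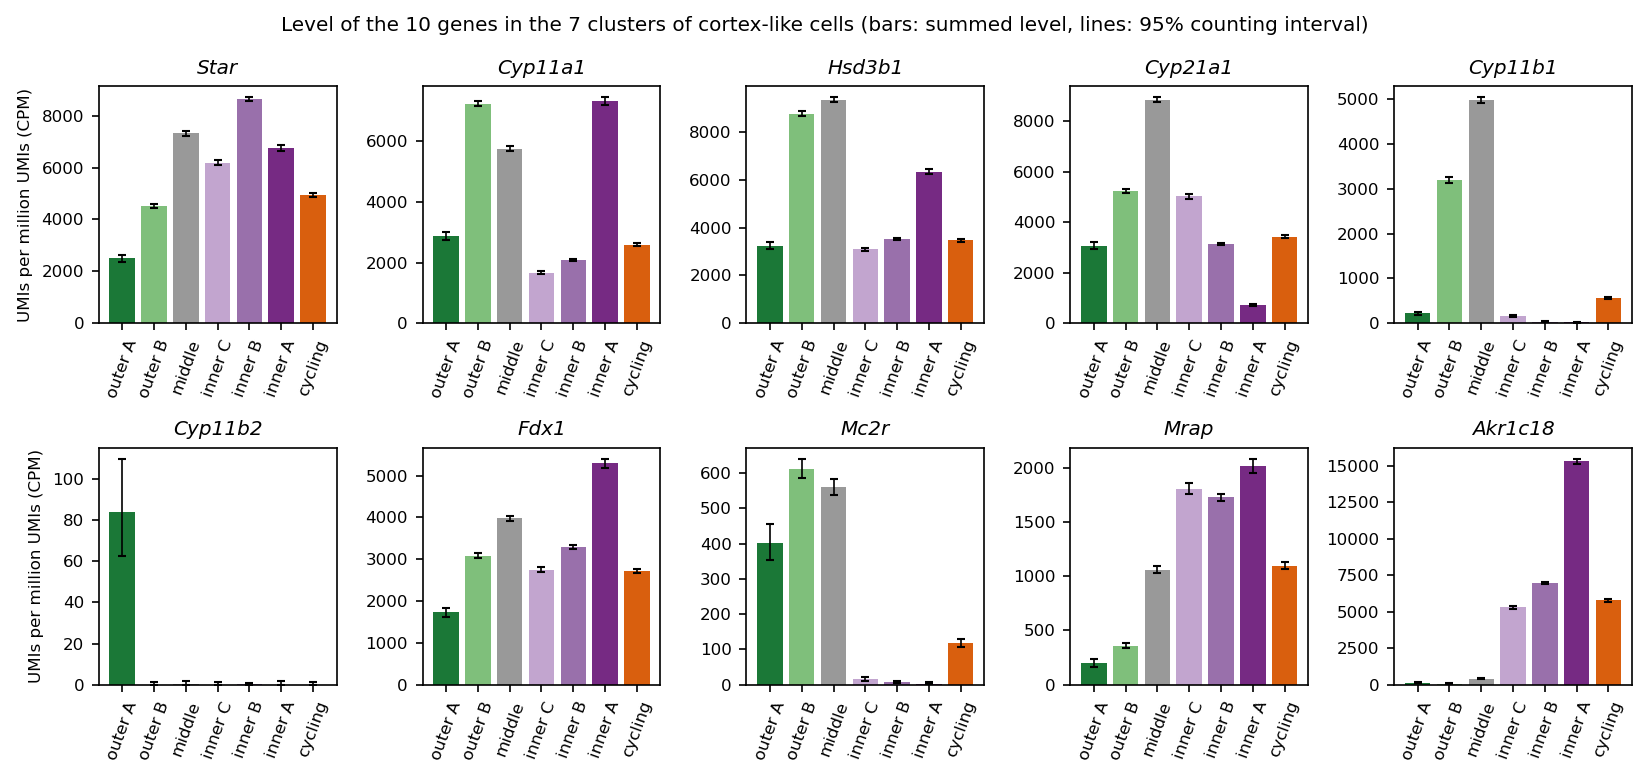
Bars show the level of each of the 10 genes (CPM, linear axis from 0, scaled per gene) in the 7 cortical clusters ordered from outer A to inner A with the cycling cluster last, and lines show exact 95% Poisson intervals, which cover counting error only. Mc2r and Cyp11b1 are high in outer B and the middle cluster and low in the 3 inner clusters, Akr1c18 and Mrap run the other way, and Cyp11b2 is found almost only in outer A.

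Genes of the early steps were expressed in every cortical cluster, with differing profiles. *Star*, the cholesterol transporter, stood at 2496 CPM (2373 to 2623) in outer A, 4505 in outer B, 7312 in the middle cluster, 6186 in inner C, 8631 in inner B, 6755 in inner A and 4939 in the cycling cells. It was thus lowest in outer A and highest in inner B, and pooled inner clusters exceeded pooled outer clusters 1.84 times (1.81 to 1.87). In the order of the levels, each cluster's counting interval lay apart from that of its neighbours.

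*Cyp11a1*, which cuts the cholesterol side chain, was not ordered along the clusters. It stood at 2873 CPM (2741 to 3009) in outer A, 7247 in outer B, 5764 in the middle cluster, 1672 in inner C, 2089 in inner B, 7331 in inner A and 2595 in the cycling cells. Outer B and inner A, at opposite ends of the marker order, therefore had nearly the same level, with overlapping intervals (7152 to 7342 and 7208 to 7455). *Hsd3b1*, the next enzyme, ran close to it, with 3253 CPM in outer A, 8772 in outer B, 9377 in the middle cluster, 3095 in inner C, 3534 in inner B, 6355 in inner A and 3476 in the cycling cells. The intervals of outer A and inner C overlapped, as did those of inner B and the cycling cells. Across the 7 clusters the 2 genes had a Pearson r of 0.908 on the log2 scale, a description over clusters that share 1 library.

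*Cyp21a1*, the 21-hydroxylase, was lowest in inner A, where *Cyp11a1* was high. Its levels were 3059 CPM in outer A, 5234 in outer B, 8869 (8780 to 8959) in the middle cluster, 5027 in inner C, 3128 in inner B, 706 (668 to 745) in inner A and 3424 in the cycling cells. Inner A was thus 12.6 times lower than the middle cluster and 4.43 times lower (4.19 to 4.69) than inner B. Only 49.3% of inner A cells (43.5 to 55.2) had a *Cyp21a1* UMI, against 99.3% in the middle cluster. The levels of outer A and inner B could not be told apart from each other by their intervals. The electron carrier *Fdx1* stood at 1733 CPM in outer A, 3085 in outer B, 3983 in the middle cluster, 2755 in inner C, 3293 in inner B, 5298 in inner A and 2718 in the cycling cells, so it was highest in inner A.

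*Cyp11b1*, the last enzyme of corticosterone synthesis, separated the clusters sharply. It stood at 217 CPM (182 to 257) in outer A, 3195 (3133 to 3259) in outer B, 4971 (4905 to 5039) in the middle cluster, 156 (142 to 172) in inner C, 36.5 in inner B, 16.2 (10.9 to 23.1) in inner A and 564 in the cycling cells. The share of cells with a UMI was 24.8% in outer A, 93.5% in outer B, 96.8% in the middle cluster and 9.26% over the inner clusters, against 4.70% in endothelial-like cells. The level of inner A lay near the background of 25.5 CPM in endothelial-like cells, that of inner B somewhat above it and that of inner C well above it. Pooled outer clusters were 42.04 times higher (38.9 to 45.5) than pooled inner ones, but the pooled value hides a 14.7-fold difference (12.4 to 17.6) between outer B and outer A. Against outer A alone, the inner level was still lower, at a ratio of 0.295.

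*Cyp11b2*, the aldosterone synthase gene, was rare. It had 73 UMIs in 43 of all barcodes, and 31 of those cells belonged to outer A. In that cluster 31 of 125 cells (24.8%, 17.5 to 33.3) had 52 UMIs together, at most 4 in a cell, and 13 of the cells had at least 2. Outer B, next to it in the order, had it in 0 of 474 cells, and that count allows a share of up to 0.633%. The middle cluster held 2 UMIs and inner B 1, inner A, inner C and the cycling cells held none, and 0 of 2150 endothelial-like cells had any, which allows up to 0.140%. The outer A level, 83.7 CPM (62.5 to 110), was at least 85.7 times higher than that of outer B, taking 3 counts over the cluster as the floor.

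The *Cyp11b1* level in outer A did not come mainly from the cells with *Cyp11b2*. Of the 31 outer A cells with a *Cyp11b2* UMI, 5 had *Cyp11b1* (16.1%, 5.45 to 33.7), and of the 94 without, 26 had it (27.7%, 18.9 to 37.9). The intervals of the shares overlap. The summed *Cyp11b1* levels were 104 CPM (63.6 to 161) in the cells with *Cyp11b2* and 268 CPM (221 to 322) in those without. These intervals did not overlap, but they do not cover the spread between cells. The former level rests on 20 UMIs in 5 cells, the latter on 115 UMIs in 26 cells. Leading genes of the 34 cortical cells with *Cyp11b2* were ranked by fold over other cortical cells with a pseudocount of 10 CPM. They were *Ecrg4* at 43.3 times, *Vsnl1*, *Kcnk9*, *Pcp4l1* and *Eno3*. The same 5 genes led the outer A cluster, but 31 of those 34 cells belonged to it, so the 2 lists are not independent.

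The ACTH receptor gene and the gene of its accessory protein ran in opposite directions. *Mc2r* stood at 403 CPM (354 to 456) in outer A, 612 (585 to 640) in outer B, 561 (538 to 584) in the middle cluster, 15.9 in inner C, 7.58 in inner B, 2.70 (0.877 to 6.30) in inner A and 118 in the cycling cells. The receptor was therefore present in outer and middle cells and near the endothelial-like level of 2.62 CPM in inner A. Over pooled clusters, outer exceeded inner 64.9 times (52.7 to 80.9), while the middle cluster matched the outer ones closely, at a ratio of 0.972 (0.917 to 1.03). *Mrap* was ordered the other way, with 200 CPM (166 to 238) in outer A, 359 in outer B, 1059 in the middle cluster, 1803 in inner C, 1726 in inner B and 2014 (1950 to 2080) in inner A, with 1097 in the cycling cells.

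Most inner cells thus had *Mrap* without *Mc2r*. The share of cells with an *Mrap* UMI was 62.9% in the outer clusters, 97.1% in the middle cluster and 98.8% in the inner clusters, and that with *Mc2r* was 81.3%, 86.2% and 3.81% in the same order. In endothelial-like cells the shares were 2.79% for *Mrap* and 0.512% for *Mc2r*. With all cells thinned to 1000 UMIs, 43.2% of cortical cells with *Mc2r* also had *Mrap*, against 68.8% of those without *Mc2r*. The middle cluster was the only one of the 7 with both above 500 CPM. Both were also found in the outer clusters, *Mrap* in 62.9% and *Mc2r* in 81.3% of the cells.

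*Akr1c18*, the progesterone-inactivating enzyme, was the most abundant of the 10 in inner A and among the least abundant in outer cells. It stood at 132 CPM (105 to 164) in outer A, 72.0 (62.8 to 82.1) in outer B, 422 in the middle cluster, 5305 in inner C, 6967 in inner B, 15308 (15130 to 15487) in inner A and 5776 in the cycling cells. Pooled inner clusters exceeded pooled outer ones 97.8 times (87.3 to 110). In inner A every cell had a UMI and the median cell had 15 per 1000 UMIs. In outer cells 14.2% had one, close to the 10.4% of endothelial-like cells. With cells thinned to 1000 UMIs the shares were 3.51% and 4.87%, so the pooled outer share was at the background. The level in outer A, however, lay above that of endothelial-like cells, with intervals that did not overlap. The middle cluster had 7.26% after thinning, with up to 18 UMIs in a cell, so that few of its cells had much of it. The 2058 cortical cells with an *Akr1c18* UMI were compared with the other cortical cells in the same way, with a pseudocount of 10 CPM. The X-zone gene *Pik3c2g* had the largest such fold, 39.2, followed by *Apoc1*, *Fetub*, *Kcnk2* and *Ankrd55*.

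**Figure D3:**
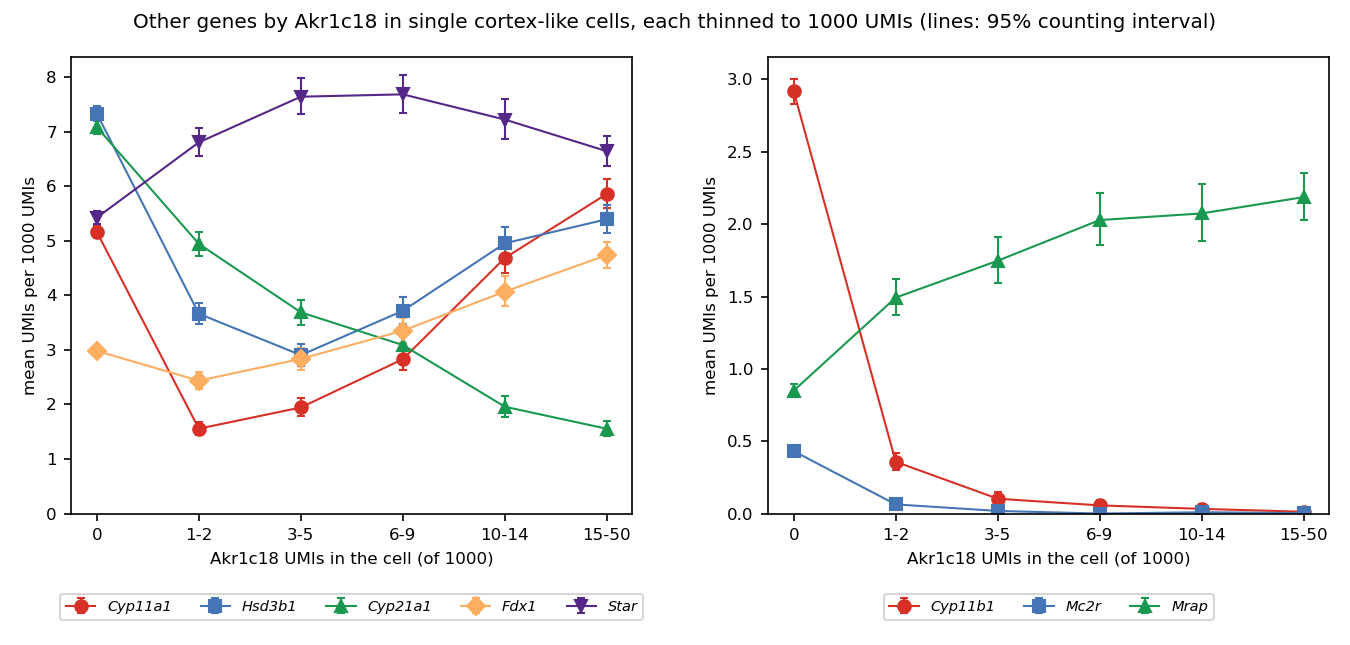
Mean UMIs of the other genes per 1000 UMIs of a cell in outer, middle and inner cortical cells grouped by their own Akr1c18 UMIs. Groups run from 0 to 15 or more, all cells were thinned to 1000 UMIs, and the cycling cells were left out. Lines are 95% counting intervals. Cyp11b1 and Mc2r fall away in the groups with Akr1c18, Cyp21a1 declines step by step, and Cyp11a1 and Hsd3b1 are high at both ends and low between.

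The same order was seen in single cells of the outer, middle and inner clusters, with the cycling cells left out. Thinned to 1000 UMIs, these cells were grouped by their own *Akr1c18* UMIs rather than by cluster. There were 1542 cells at 0, 394 at 1 to 2 and 273 at 3 to 5. A further 247 had 6 to 9, 216 had 10 to 14 and 321 had 15 or more. Mean *Cyp21a1* per cell was 7.08, 4.94, 3.69, 3.09, 1.96 and 1.56 UMIs in these groups, lower at each step. *Cyp11a1* had 5.16, 1.56, 1.95, 2.83, 4.68 and 5.86 UMIs, with the lowest mean at 1 to 2 *Akr1c18* UMIs and the highest at 15 or more. *Mrap* had 0.850, 1.49, 1.75, 2.03, 2.07 and 2.19. *Cyp11b1* had 2.92 UMIs in the cells without *Akr1c18* and 0.358, 0.103, 0.0567, 0.0324 and 0.0125 in the others. Over all 3361 cortex-like cells thinned in this way, cycling cells included, *Cyp11b1* and *Akr1c18* were also seldom found together. *Akr1c18* was in 7.67% of the 1186 cells with *Cyp11b1* and in 72.7% of the cells without.

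Cells were also grouped by *Wnt4* and *Pik3c2g* alone. These genes also named the clusters, so the groupings are not independent. After thinning, 271 cells had *Wnt4* and no *Pik3c2g*, and 509 had *Pik3c2g* and no *Wnt4*. Mean *Star* was 3.10 UMIs in the former and 7.11 in the latter, and mean *Akr1c18* 0.114 and 12.2. *Mc2r* had 0.531 and 0.00982, and *Mrap* 0.295 and 1.92. *Cyp11a1* differed little, with 5.50 and 4.89 UMIs.

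*Cyp11a1* and *Cyp21a1*, enzymes of the same pathway, were opposed within the inner cells. The 1706 inner cells with at least 1000 UMIs were grouped by *Cyp11a1* UMIs after thinning. Among the 624 with none, 15.5% (12.8 to 18.6) lacked *Cyp21a1*. The share was 25.4% among 418 cells with 1 to 2 *Cyp11a1* UMIs, 41.4% among 348 with 3 to 5, and 66.1% (60.6 to 71.3) among 316 with 6 or more. Mean *Akr1c18* was 3.72 UMIs in the first group and 14.7 in the last. So the inner cells richest in *Cyp11a1* were mostly without *Cyp21a1* and rich in *Akr1c18*.

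**Figure D4:**
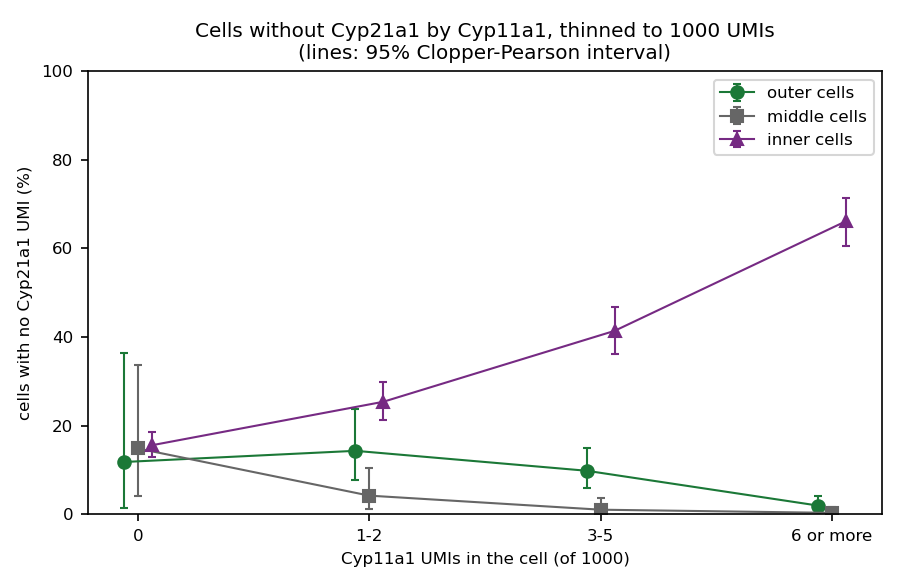
Share of cells without a Cyp21a1 UMI (percent) against the cell's Cyp11a1 UMIs, in inner, middle and outer cortical cells thinned to 1000 UMIs, with exact 95% binomial intervals that cover counting error only. The share is higher at each step in inner cells, from 15.5% to 66.1%, and lower at each step in middle and outer cells apart from the outer cells without Cyp11a1, of which there are 17.

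In outer cells the relation ran the other way, while few middle cells lacked *Cyp21a1* at all. Of 27 middle cells without *Cyp11a1*, 14.8% (4 cells) lacked *Cyp21a1*, and of those with 6 or more *Cyp11a1* UMIs 0.275% (1 cell) did. Mean *Cyp21a1* was 4.67 UMIs in the middle cells without *Cyp11a1*. It was 9.06, 10.1 and 9.48 in those with 1 to 2, 3 to 5 and 6 or more. Outer cells lacked *Cyp21a1* in 11.8% of the 17 cells without *Cyp11a1*, too few to place, in 14.3% of those with 1 to 2 UMIs and in 1.92% of those with 6 or more. As a description over cells, which are not replicates and share a library, Spearman's rho of *Cyp11a1* and *Cyp21a1* was -0.41 in 1706 inner, 0.06 in 689 middle and 0.36 in 598 outer cells. It was -0.12 within inner A, -0.31 within inner B and -0.20 within inner C, each nearer to 0 than over the pooled inner cells. The outer value pools outer A and outer B, which differed in the level of both genes, and was not computed within each. In outer cells the other pairs among *Star*, *Cyp11a1*, *Hsd3b1*, *Cyp21a1*, *Cyp11b1* and *Fdx1* had values from 0.25 to 0.51.

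Between the pooled inner and outer clusters, 5 of the 9 genes tested differed at least 2-fold, compared with 12.4% of the 8284 genes tested. *Mrap* and *Akr1c18* were higher in the inner clusters (6.01% of all genes), and *Cyp11a1*, *Cyp11b1* and *Mc2r* were lower (6.42%). *Hsd3b1* lay at the limit with a ratio of 0.500 (0.493 to 0.508) and missed it once the pseudocount of 10 CPM was added. Just inside the limit was *Cyp11a1* with 0.448 (0.440 to 0.456). *Star* at 1.84, *Fdx1* at 1.23 and *Cyp21a1* at 0.655 lay between. The call of *Cyp11a1* was lost when each cell was grouped by its own markers, without outer B and without inner C, and against outer A alone *Star* and *Fdx1* passed the limit. For *Hsd3b1* the direction turned against outer A alone, to a ratio of 1.21 (1.15 to 1.26), while *Cyp11a1* with 1.02 (0.968 to 1.07) and *Cyp21a1* with 1.04 (0.996 to 1.09) had intervals that included 1. The lower pooled values of these 3 genes thus rested on outer B. The median log2 ratio was -0.61 for the 9 genes and -0.03 over all genes tested. Between the middle and outer clusters *Mrap* (3.19 times) and *Akr1c18* (5.15 times) were at least 2-fold higher, as were 1.68% of 7023 genes, and 0 of the 9 were 2-fold lower, as were 2.32%. Between the inner clusters and the middle one, *Akr1c18* was higher (2.81% of 8217 genes) and *Hsd3b1*, *Cyp21a1*, *Cyp11b1* and *Mc2r* were lower (3.18%). Neighbouring clusters differed too. *Cyp11a1* (3.51 times) and *Akr1c18* (2.20 times) were higher in inner A than in inner B, which 0.429% of 6530 genes were by 2-fold, and *Cyp21a1* was lower (0.995%). *Cyp11a1*, *Hsd3b1* and *Cyp11b1* were at least 2-fold lower in outer A than in outer B (2.15% of 4746 genes), by 2.52, 2.70 and 14.7 times.

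Other genes of steroid synthesis were taken from a list of 33, of which 32 were in the matrix and 18 had enough UMIs. In the inner clusters 6 of the 18 were at least 2-fold higher than in the outer ones and 2 lower, against 6.01% and 6.42% of all 8284 genes tested, with a median log2 ratio of 0.74 against -0.03 over all. Among the higher was *Stard4*, a cholesterol transfer protein gene, at 111 CPM against 4.33, and *Srd5a2*, a steroid 5-alpha-reductase gene, at 243 against 23.6. Its relative *Srd5a1* was among the lower, at 14.9 against 61.2 CPM, as was *Akr1b7*, an aldo-keto reductase gene known to respond to ACTH, at 205 against 679. Both were also at least 2-fold lower in outer A than in outer B, as were 2.15% of 4746 genes. Their pooled outer values thus rested in part on outer B. *Akr1b7* was also at least 2-fold higher in inner A than in inner B, as were 0.429% of 6530 genes. The ferredoxin reductase gene *Fdxr*, partner of *Fdx1*, stood at 962 and 1028 CPM. *Cyp17a1*, whose product leads to androgens, was nearly absent, with 8 UMIs in all cortex-like cells.

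A list of 36 genes of the ACTH and angiotensin response, 35 of them in the matrix, had 20 with enough UMIs for the same comparison. Of these 1 was at least 2-fold higher in the inner clusters and 9 were lower, against the same 6.01% and 6.42% of all genes, with a median log2 ratio of -0.60 against -0.03. The 1 of 20 that was higher is thus near the share over all genes. The higher was *Prkaca*, a catalytic subunit of protein kinase A, at 92.8 against 37.9 CPM. Among the lower were *Agtr1a*, an angiotensin II receptor gene, at 8.40 against 138 CPM, and the potassium channel genes *Kcnk3*, at 250 against 1789, and *Kcnk9*, at 0.386 against 97.2. The early-response factors *Nr4a1*, *Nr4a2* and *Nr4a3* were lower too, and they are of the same kind as the immediate early genes that led outer B. So like *Mc2r*, the receptors and channels of these pathways that passed the limit had the higher level in the pooled outer clusters. Their profiles within those clusters were not all alike. *Kcnk9* stood at 549 CPM in outer A, on which its pooled value rested, whereas *Mc2r* was higher in outer B. The receptor accessory gene *Mrap2* had 11 UMIs in the inner clusters and 0 in the outer ones. Both lists were fixed with earlier results of these data known.

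*Mrap* and *Mc2r* were also found outside the cortex at levels that the background did not match. To limit doublets, cells with 20 or more UMIs of the other genes of the 10 were left out here. In immune-like cells *Mrap* stood at 86.4 CPM (71.1 to 104) and was found in 99 of 624 cells (15.9%), 8.02 times its endothelial-like level (5.82 to 11.2), whereas *Star* was at 0.995 of its endothelial-like level. Of the 100 immune-like cells with *Mrap* before that filter, 99.0% had *C1qa*, a macrophage gene, as had 89.2% of the others. The other genes of the 10 together stood at 660 CPM in the cells with *Mrap* and 443 CPM in those without. *Star* was at 148 CPM (101 to 209) and 85.2 CPM (68.8 to 104). The part of cortical RNA in this was not tested. In the 81 remaining fibroblast-like cells *Mc2r* stood at 104 CPM, with a UMI in 21 of the cells (25.9%), 65.2 times the endothelial-like level (29.3 to 159). *Mrap* was found in 39 of them (48.1%), at 21.3 times the endothelial-like level (14.4 to 31.3), and *Star* was at 1.54 times. Before that filter, 25 fibroblast-like cells had *Mc2r* and 63 did not. The other genes of the 10 together stood at 3784 CPM in the former and 1120 CPM in the latter. Median depth was 3132 and 1646 UMIs. The part of cortical RNA or of mixed cells in this was not tested.

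That fibroblast-like cluster was itself mixed. It had 4 of 6 fibroblast markers in at least 25% of its 88 cells, and 7 of 7 endothelial markers as well, with summed levels of 3212 and 3851 CPM. All 88 cells were split by their own markers, without the filter of the last paragraph. The 7 cells with 20 or more UMIs of the 10 genes, which held 75.4% of the cluster's UMIs of these genes, were thus included. Of the 42 cells with at least 2 fibroblast markers and at most 1 endothelial marker, 9 had *Mc2r* (21.4%), 24 had *Mrap* (57.1%) and 4 had *Star* (9.52%). Among the 43 cells with at least 2 endothelial markers, 16 had *Mc2r* (37.2%), 17 had *Mrap* (39.5%) and 17 had *Star* (39.5%). *Cyp11a1* had 114 UMIs in 12 of these 43 cells, against 14 UMIs in 6 of the 42. Without that filter, the receptor and its accessory gene were found in both groups of cells. The part of cortical RNA in these counts was not tested.

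*Fdx1* differed from the other genes in chromaffin-like cells. With the same filter, *Fdx1* stood at 67.8 CPM in chromaffin-like cells, 1.08 times its endothelial-like level (0.949 to 1.24). The other genes of the 10 outside *Cyp11b2* lay between 0.35 and 0.71 times theirs. Transitioning-like cells, which had markers of both chromaffin and sustentacular cells, had a like pattern. There *Fdx1* was at 1.13 times (0.942 to 1.35) and the same other genes between 0.31 and 0.69 times. For every 100 *Star* UMIs there were 181 *Fdx1* UMIs in all chromaffin-like cells, 81.7 in endothelial-like and 51.3 in cortex-like cells. The chromaffin-like value was 210 in adrenaline and 111 in noradrenaline clusters, told apart by *Pnmt*. *Hsd3b1* UMIs per 100 of *Star* numbered 136, 94.3 and 85.0 in the 3 classes in the same order. The *Fdx1* values of the 3 classes had intervals that did not overlap. For *Hsd3b1* only the chromaffin-like value (119 to 155) lay apart. The endothelial-like (82.6 to 108) and cortex-like (84.4 to 85.7) intervals overlapped.

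The cycling cortical cells lay between the pooled inner and outer levels for *Star*, *Cyp21a1*, *Cyp11b1*, *Mc2r*, *Mrap* and *Akr1c18*. They lay below both for *Cyp11a1*, *Hsd3b1* and *Fdx1*. The share of all genes that lay between was not computed. The cycling cells had *Akr1c18* at 5776 CPM, near inner C, but *Cyp11b1* at 8.80 times and *Mc2r* at 13.3 times the pooled inner levels. The cluster also had *Wnt4* at 48.2 CPM and *Pik3c2g* at 309 CPM, and no zone was assigned to it.

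Over the 7 cortical clusters, the genes with levels most like each of the 10 were found by Pearson's r, as a description. For *Akr1c18* they were *Plin5*, with r of 0.998, *Selenop* and *Paox*, and for *Mc2r* they were *Aebp1*, with 0.997, *Tpm2* and *Plpp1*. The nearest for *Mrap* was *Rab14* (0.996), for *Cyp11b1* *Bcl7c* (0.989), for *Star* *Palmd* (0.988), for *Cyp21a1* *Mbd2* (0.979) and for *Cyp11b2* *Ermp1* (0.975). *Scarb1*, the receptor gene for cholesterol uptake from lipoproteins, was among the 3 nearest to *Cyp11a1* (0.951). *Hsd3b1* was nearest to *Akr1b7* (0.961) and *Fdx1* to *Akr1b8* (0.956). Among the 10 themselves, *Mc2r* and *Akr1c18* were the most opposed, with r of -0.908, and *Cyp11b1* and *Mc2r* had 0.885.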

How the data were processed

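Single cells of the adrenal medulla of pooled wild-type mice were sequenced in 1 library. The authors counted UMIs with Cell Ranger 4.0.0 (genome build mm10 in the submitters' processing notes) and deposited integer UMI counts per gene and barcode, without normalization.

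Cells were kept by the limits of the study's methods. After log-normalization they were grouped in R 4.3.3 by Seurat 5.3.0, with SeuratObject 5.2.0 and Matrix 1.6.5, on 2000 variable features without the 10 genes, using Louvain clustering (resolution 0.4) over 10 principal components. A cluster was named "-like" where 3 or more markers of a list were detected in 50% or more of the cells, with 25% as the limit for sustentacular and cycling markers. Cortex-like cells were clustered again, and subclusters with 3 markers of another class in 25% of cells were left out. Scrublet (scanpy 1.11.5, expected rate 8%) called 6.60% of the cells doublets, which were not removed.

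Folds between groups were set against those of all genes with at least 100 UMIs, with a pseudocount of 10 CPM for the 4-fold and 2-fold limits. The same pseudocount was used for the median log2 ratios and for the folds that ranked leading genes. Other ratios printed had none. Shares were also taken with each cell thinned to 1000 UMIs, leaving out shallower cells. A count of 0 was taken to allow 3 counts of the total. Python 3.11.15, numpy 2.4.6, scipy 1.17.1, pandas 2.3.3 and matplotlib 3.10.9 were used. The calculation of folds and ratio intervals was checked on counts simulated with counting error only. Spread between cells, clustering, cluster naming, doublets and free RNA were not simulated.

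By rule the text names the 10 genes, a few of each of the 2 wider lists by their fold between zones, the 5 leading genes of a cluster or of cells with *Cyp11b2* or *Akr1c18*, and the 3 genes with the most similar levels. *Fdxr*, *Cyp17a1*, *Mrap2*, *Prkaca*, *Akr1b7*, *Srd5a1* and *C1qa* were named after their values were seen. The 10 genes and the lists were chosen with earlier results of these data known. Coordinates are those of GRCm38 (GENCODE vM21), matched by gene identifier, and RefSeq promoter windows covered 4 of the 10 genes. The sorted library of the study is not analysed here. A gene that the naming rule covers is not reported here.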

Additional observations from a re-analysis of the deposited data

Results flagged for a closer look

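Transcripts of the 10 genes were also found in barcodes that no comparison used. The 1075 barcodes outside the cell limits held 1.20% of their UMIs in these genes, against 1.74% in the cells kept. The share was 0.207% in the 950 barcodes with under 500 genes, 1.49% in the 78 with over 5000 genes, and 3.02% in the other 47, which had over 20% mitochondrial UMIs. Of the 78 deep barcodes, whose median was 22790 UMIs, 49 had at least 20 UMIs of the 10 genes. *Cyp11b2* had 11 UMIs in all 1075.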

How the results depend on the processing

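With 1 library and classes named from markers, the intervals hold counting error only, and depth limits the rarer transcripts, above all *Cyp11b2* and *Mc2r*. No paired analysis was possible because there was 1 library, and for the same reason no replicate could be left out. The 9 genes stayed at least 4-fold higher in cortex-like than in chromaffin-like cells in all 12 alternatives run. The number of genes that differed 2-fold between inner and outer clusters was 4 to 7 in 14 alternatives against 5, with *Mrap* and *Akr1c18* higher and *Cyp11b1* and *Mc2r* lower in each. No direction turned in the ratios of *Cyp11b1* and *Star*. Without outer B, the inner to outer ratios of *Cyp11a1*, *Hsd3b1* and *Cyp21a1* moved from below to above 1, to 1.02, 1.21 and 1.04. The inner to outer ratio of *Cyp11b1*, 0.0238, was 0.0136 with the 10 genes among the variable features, 0.0293 at a resolution of 0.2, 0.00853 with stricter cell limits (1000 genes or more, mitochondrial UMIs no more than 10%), 0.0143 without called doublets, 0.0374 with each cell grouped by its own markers, 0.0477 as a mean over cells, 0.0452 after thinning and 0.0145 with the endothelial-like level subtracted. The ratio of *Star*, 1.84, was 1.29 at a resolution of 0.2, 2.03 with 30 principal components, 1.69 under the stricter cell limits, 1.57 with each cell grouped by its own markers, 2.02 as a mean over cells and 2.03 after thinning. The share of outer cells with *Cyp11b2*, 5.18%, was 2.49% at a resolution of 0.2, 2.17% after thinning and 2.17% at 2 UMIs or more. The share of cortex-like cells with *Akr1c18*, 61.2%, was 70.6% under the stricter limits, 49.7% after thinning and 54.2% at 2 UMIs or more. Both further alternatives were chosen after seeing the data. Without outer B, the cluster led by *Atf3*, *Btg2* and *Fos*, *Cyp11b1* had 0.295, *Star* 3.07 and the *Cyp11b2* share was 24.8%. Without inner C, the cluster of lowest depth, *Cyp11b1* had 0.0117 and *Star* 1.96. The causes were not tested.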

Other observations

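Inner cortical cells could be split by sex-linked transcripts, with 278 that had *Xist* and no Y-linked UMI and 876 with Y-linked UMIs and no *Xist*. *Cyp11a1* stood at 4202 CPM in the former and 2445 in the latter, 1.72 times higher, and *Hsd3b1* at 5321 and 3477, 1.53 times. *Cyp21a1* ran the other way, with 1631 and 3500 CPM, 2.15 times lower. *Akr1c18* had a pooled ratio of 1.09, but ratios of 1.05 in inner A, 0.804 (0.781 to 0.828) in inner B and 0.776 (0.733 to 0.821) in inner C. Inner A held 28.1% of the inner cells with *Xist* and 13.2% of those with Y-linked UMIs. Within inner A, B and C the ratios of *Cyp11a1* were 1.24, 1.29 and 1.34 and those of *Cyp21a1* 0.687, 0.398 and 0.790. In the cycling cells, 82 with *Xist* and 222 with Y-linked UMIs, *Mc2r* was 2.60 times higher and *Akr1c18* 0.501 times. The number of mice of each sex is not given in the sources used here, the animals were pooled, and sex and animal cannot be told apart.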
